A study of Mus musculus with 44 samples.

Results

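The distal extraembryonic endoderm (exEndo 1) and the epiblast (Epi) of mouse embryos at embryonic day 6.5 (E6.5) were compared through 4 RNA-seq libraries of each. The libraries were chosen by their titles and are 8 of the 44 samples of the series. The embryos were wild type and had been made by aggregating mCherry-positive morulae with GFP-positive mouse embryonic stem cells (ESCs), so that the extraembryonic tissue descends from the morula and the epiblast from the ESCs. The morulae came from mCherry-positive males crossed with CD-1 females. The mCherry transgene is driven by the EF1a promoter and goes back to single-cell-derived ESC clones, and its colony was kept on C57BL/6J females. The ESCs were a male F1G4 line with EGFP under the CAG promoter at the Rosa26 locus, grown from single cells. Lineage, strain background and reporter therefore changed together between the groups and cannot be told apart. Morula-derived cells could be female or male, so sex was not balanced between the groups either. Tissues of individual embryos were separated with enzymes and a glass capillary and were not sorted by colour. Of the other samples, the 4 libraries of proximal extraembryonic endoderm (exEndo 2) and the 16 gut libraries of E9.5 are used for side values only.

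At this stage the conceptus is a cup in which the epiblast, the source of all cells of the embryo proper, is covered by visceral endoderm, a polarized epithelium of primitive endoderm origin. The visceral endoderm takes up maternal protein and lipid through its apical surface, degrades them in large lysosomes and secretes transport proteins and lipoproteins, work that the yolk sac and later the liver continue. Its distal and anterior cells also secrete antagonists of Nodal and Wnt, by which the adjoining epiblast is patterned before the primitive streak forms.

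The values were TPM, a measure of transcript abundance that is corrected for transcript length and adds to the same total in each library. A gene was called when its difference in mean log2(TPM + 1), exEndo 1 minus Epi, was larger than 1 in either direction with an adjusted p below 0.05 (limma over all genes tested, two-sided). All log2 differences are on that scale, which understates the change of genes with low values. Read counts are not in the tables. From the ratio of coverage to FPKM, 3.39 to 5.02 gigabases were aligned per library, so that the deepest of the 8 was 1.48 times as deep as the shallowest, and 12540 to 12911 genes were above 1 TPM in each. In tissue RNA, fewer cells of a type and less RNA per cell cannot be told apart.

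The reporters followed the labels. In exEndo 1, mCherry was 3445, 3963, 5231 and 1764 TPM in replicates 1 to 4, against 0.822, 0, 0.0953 and 0 TPM in Epi. EGFP was 332, 496, 532 and 179.6 TPM in Epi and 1.09, 13.7, 0.0664 and 15.9 TPM in exEndo 1. The groups did not overlap for either reporter, but EGFP was above 10 TPM in exEndo 1 replicates 2 and 4. Tdgf1, Ifitm2 and Ccnd1, which were abundant in Epi, were highest in the same libraries. Among other genes far lower in exEndo 1, Pou5f1, Fst, Bcat1 and Pim2 were also highest there. Slc7a3, Wfdc2, Uchl1 and Fgf15 were instead highest in exEndo 1 replicate 1. Without both libraries the differences were -7.90 for EGFP and -6.93 for Ifitm2 (against -6.20 and -5.65), and 4042 genes were called.

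All 8 visceral endoderm markers were called higher in exEndo 1 and their TPM added to 9716 to 15378 there, against 12.2 to 15.8 in Epi. Of the 8 epiblast markers 7 were called lower, and their sum was 369 to 573 TPM in exEndo 1 against 3086 to 4539 in Epi. The exception was Fgf5, a growth factor gene that is commonly used as a marker of the primed epiblast, at 115, 121, 149.7 and 97.9 TPM in Epi and 155, 115, 32.4 and 90.1 TPM in exEndo 1 (log2 difference -0.49, adjusted p = 0.284). The protocol label of the Epi samples names an embryonic visceral endoderm tissue, whereas their title and source name epiblast. The markers in these libraries were those of epiblast.

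**Figure D1:**
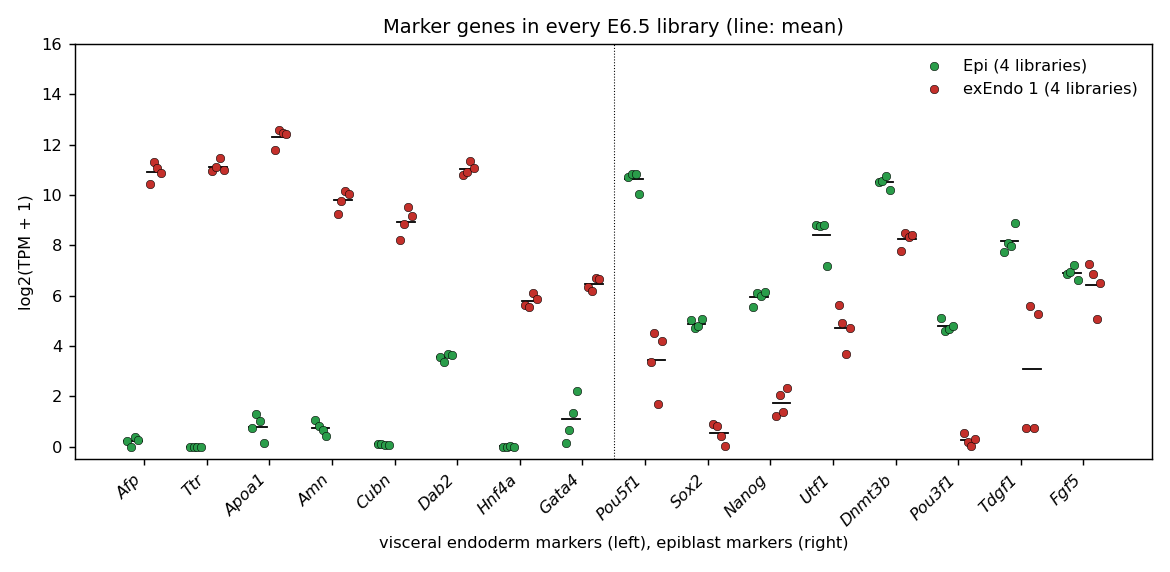
Level of 8 visceral endoderm markers and 8 epiblast markers in every library, as log2(TPM + 1), with a point per library and a line at the group mean. The groups are apart for 15 of the genes, and the points of Fgf5 overlap.

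Markers of most other cell types were low. The sum of 10 trophoblast markers was 15.4 to 31.3 TPM in exEndo 1 and 1.73 to 3.75 TPM in Epi, the largest share in exEndo 1 being that of Cdx2, a caudal transcription factor gene that was 8.22, 21.0, 28.4 and 18.9 TPM in exEndo 1. The parietal endoderm list gave 433 to 813 TPM in exEndo 1 and 117 to 258 TPM in Epi. Of its 6 members tested, Srgn, Pth1r, Sparc and Lamb1 were called higher and Fst and Snai1 lower, Lamb1 (1.04) not without exEndo 1 replicate 1 (0.92). Without replicates 2 and 4 Lamb1 was 0.995 and was not called either. Mesoderm markers were 4.14 to 12.4 TPM in exEndo 1 and 0.760 to 71.2 TPM in Epi. Only 1 of them could be tested. It was called higher (1.37), but not without Epi replicate 1 (0.89). Blood and endothelial markers were 3.04 to 10.0 TPM in exEndo 1 and 0.872 to 2.21 TPM in Epi, and of these Gata1 was called higher (2.20). The sum of the maternal markers was 6.51 to 15.2 TPM over both groups, and of the 3 tested 2 were called lower and 1 was not called. Primordial germ cell markers were 16.6 to 39.8 TPM in exEndo 1 and 12.1 to 30.8 TPM in Epi. Of the 3 germ cell markers tested, 1 was called higher, 1 lower and 1 was not called (median log2 difference -0.35). The rise was that of Prdm1, which is also a regulator of endoderm.

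Sex-linked transcripts split the exEndo 1 libraries. Replicates 1 and 3 held 231 and 123 TPM of Xist, the noncoding RNA that silences an X chromosome in female cells, and at most 0.0472 TPM of 4 Y-linked genes together. Replicates 2 and 4 held 1.51 and 1.43 TPM of Xist and 156 and 164 TPM of the Y-linked genes. They are also the libraries above 10 TPM of EGFP, so fits without both keep only the exEndo 1 libraries with Xist. EGFP content and sex cannot be told apart in those fits. In Epi, Xist was 0.571 to 1.67 TPM and the Y-linked genes 1.06 to 3.0 TPM, so that all 4 Epi libraries were low for both, although the ESC line is described as male. Y-linked genes were left out of the test.

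Libraries also differed within a group. The correlation of log2 values was 0.970 to 0.995 within Epi, 0.965 to 0.987 within exEndo 1 and 0.765 to 0.810 between the groups, across the genes tested. Epi replicate 1 stood apart in primitive streak genes. Mixl1, a homeobox gene of the streak, was 1.90 TPM there and 141 to 227 TPM in the other Epi libraries, Mesp1, a gene of the first mesoderm, was listed at 0 against 32.7 to 60.7 TPM, and Dppa5a, a gene of the naive state, was 1524 TPM against 209 to 368 TPM. In exEndo 1, replicate 3 was lowest for genes of the anterior visceral endoderm, such as Cer1 at 11 TPM against 89.8 to 283 TPM in the others.

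**Figure D2:**
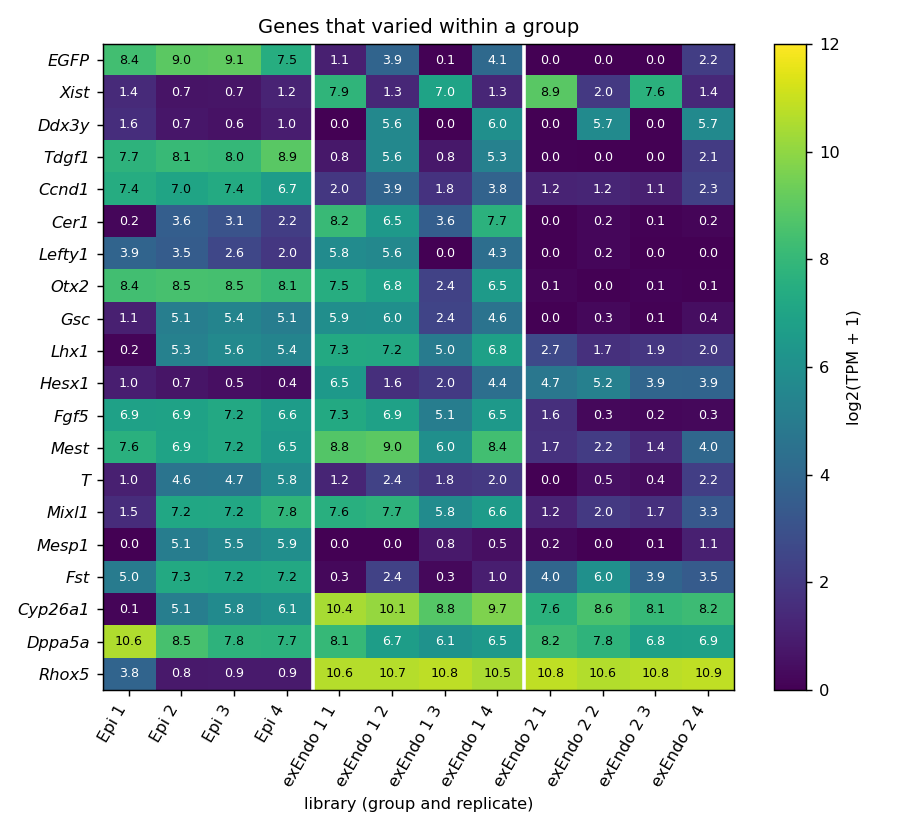
Level of 20 genes, as log2(TPM + 1) written in each cell, in the 4 Epi, 4 exEndo 1 and 4 exEndo 2 libraries. Epi replicate 1 is low in T, Mixl1, Mesp1 and Cyp26a1, exEndo 1 replicates 2 and 4 hold EGFP, Tdgf1 and the Y-linked Ddx3y, and exEndo 1 replicate 3 is low in Cer1, Lefty1, Otx2 and Gsc.

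Of the 12057 protein-coding genes tested, 4024 (33.4%) were called, 2389 (19.8%) higher and 1635 (13.6%) lower in exEndo 1. These shares are the background against which the counts of each gene group should be read. A gene was tested only if it exceeded 1 TPM in at least 4 of the 8 libraries. Genes almost absent from either group therefore enter only through the other, which fixes their direction. Counts and medians of lists rich in such genes are description only. Among the genes called higher the median size was 1.67 on the log2 scale, and 200 genes exceeded 4. The falls were smaller at the extreme, since 49 genes exceeded 4, while their median was 1.62. The groups did not overlap for 6822 genes (56.6%), among them 2337 of those called higher and 1578 of those called lower. The split between rises and falls depended on the scaling. Rises made up 59.4% of the calls as deposited, 49.7% after quantile normalization and 52.0% after median-ratio rescaling, with a median log2 difference over all genes of 0.09, -0.12 and -0.05.

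Secreted and absorptive proteins led the rises. The 12 largest rises were in Spink1, Apoa1, Apoc2, mCherry, Ttr, Afp, Apob, Apom, Amn, Rhox5, Ctsh and Cubn. The 12 largest falls were in Pou5f1, Slc7a3, EGFP, Fst, Ifitm2, Wfdc2, Bcat1, Uchl1, Fgf15, Tdgf1, Pim2 and Cxcl12. They include a pluripotency factor, secreted signals and a carrier of amino acids. The most abundant transcript of exEndo 1 was Spink1, a secreted inhibitor of trypsin-like proteases, at 14782, 12187, 13969 and 11233 TPM. In Epi it was 0.138 TPM in replicate 1 and listed at 0 in the others. The gene lies on chromosome 18 (43728082 to 43737557, mm10).

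**Figure D3:**
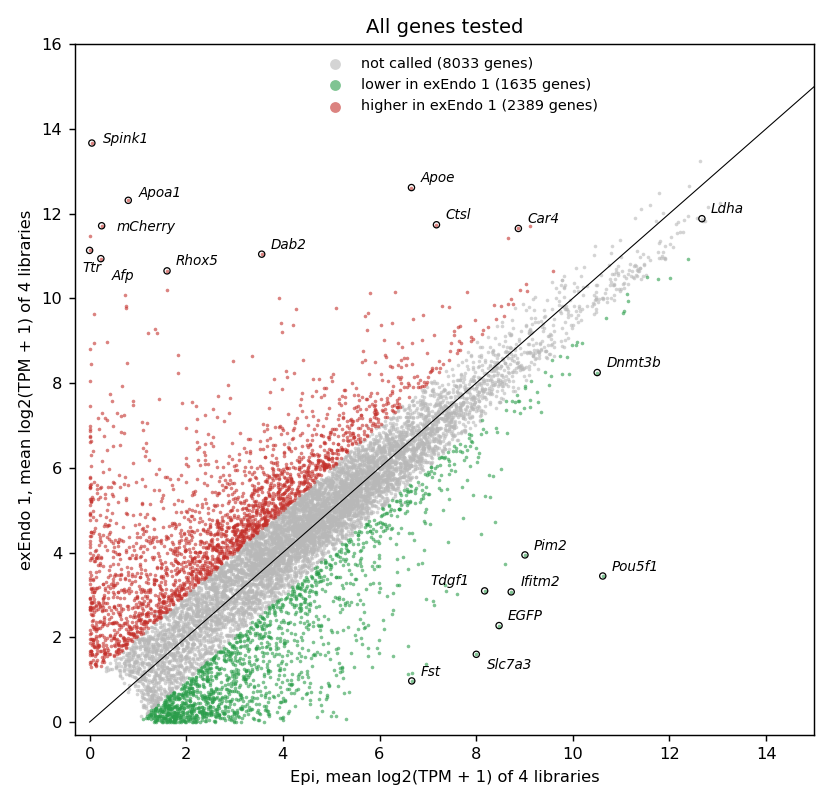
Mean log2(TPM + 1) of the 4 Epi libraries against that of the 4 exEndo 1 libraries for the 12057 genes tested, with genes called higher in exEndo 1 in red, genes called lower in green and the others in grey. The largest rises, at the upper left, are genes at or near 0 in Epi, whereas Pou5f1, the largest fall, keeps a measurable level in exEndo 1.

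Of 22 serum and transport protein genes 16 could be tested. All 16 were called higher, with a median log2 difference of 4.89 against 0.09 over all genes. Members almost absent from Epi, such as Ttr and Afp, passed the filter only through exEndo 1. Their direction was fixed by the filter, so this count and median are description only. Together the 22 genes of the list took 1.67 to 2.16% of all TPM in exEndo 1 and 0.00101 to 0.00128% in Epi. Afp, the fetal counterpart of albumin, was 1397, 2569, 2184 and 1868 TPM in exEndo 1 and 0.189, 0, 0.325 and 0.210 TPM in Epi (log2 difference 10.70, SE 0.18, adjusted p = 1.05e-11). Ttr, which carries thyroid hormone and the retinol-binding protein, was 1997, 2218, 2822 and 2012 TPM in exEndo 1 and listed at 0 in every Epi library. Rbp4, that retinol-binding protein, was 707, 1319, 2028 and 1017 TPM against 1.53 to 2.98 TPM in Epi. Every library of exEndo 1 was above every library of Epi for these genes. Trf, the iron carrier transferrin, was 95.2 to 142 TPM against 0.380 to 0.733 TPM. Among clotting genes, Fgb (log2 difference 5.60), F2 (5.10), Fgg (4.97), F10 (4.46), F5 (4.25), Fga (3.53) and Plg (3.13) were called higher, as was the clotting inhibitor gene Serpinc1 (2.17). Alb itself did not pass the filter of 1 TPM in 4 libraries.

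Of the 16 genes of apolipoproteins and lipoprotein assembly tested, 15 were called higher and 1, Dgat1, was not called. All 9 apolipoproteins tested rose, with a median log2 difference of 8.80. Those almost absent from Epi, such as Apoc2, passed the filter only through exEndo 1, which fixed their direction. Apoa1, the main protein of high-density lipoprotein, was 3503, 6181, 5670.3 and 5428 TPM in exEndo 1 and 0.660, 1.47, 1.02 and 0.112 TPM in Epi (log2 difference 11.51, SE 0.25). Apob, the scaffold of very low-density lipoprotein, was 607, 992, 892 and 715 TPM against 0.0189 to 0.109 TPM. Apoc2, the activator of lipoprotein lipase, was 1531, 2679.5, 3936 and 3979 TPM against 0 in all Epi libraries. Apoe and Apoc1 differed from these in having a level in Epi. Apoe was 4376, 6834, 7641 and 6717 TPM in exEndo 1 and 135, 125, 84.7 and 70.5 TPM in Epi (log2 difference 5.95), and Apoc1 was 204 to 311 TPM against 19 to 32.1 TPM (3.49).

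The enzymes that load these particles rose as well. Mttp, which transfers triglyceride to apolipoprotein B, was 156, 179, 267 and 210.3 TPM in exEndo 1 and 5.98 to 7.07 TPM in Epi (log2 difference 4.74). Soat2, an acyltransferase that makes the cholesteryl esters of lipoprotein cores, was 151, 233, 234 and 242 TPM against 0.102 to 0.602 TPM (7.31). Dgat1 and Dgat2 encode unrelated enzymes of the last step of triglyceride synthesis. Dgat2 was called higher (3.05), whereas Dgat1 was 16.1 to 20.8 TPM in exEndo 1 and 12.8 to 15.9 TPM in Epi (0.27, adjusted p = 0.125), and its difference was -0.07 after quantile normalization.

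Of 17 endoderm transcription factor genes 14 could be tested, and all 14 were called higher, with a median log2 difference of 2.91. Members almost absent from Epi, such as Hnf4a, passed the filter only through exEndo 1, which fixed their direction. Hnf4a, a nuclear receptor that is needed for secretion by the visceral endoderm, was 49.0, 46.0, 67.9 and 57.0 TPM in exEndo 1 and 0.00829, 0, 0.0322 and 0 TPM in Epi (5.78, adjusted p = 4.37e-10). Gata4 was 79.8, 71.1, 103 and 101 TPM against 0.123, 0.603, 1.52 and 3.68 TPM (5.37), and Sox17 was 36.0 to 101 TPM against 0.230 to 3.11 TPM (4.95). These 3 genes separated the groups in every library. Gata6 and Foxa2 had a level in 3 of the 4 Epi libraries. Foxa2, a pioneer factor of endoderm and node, was 51.3, 52.3, 34.4 and 37.6 TPM in exEndo 1 and 0.121, 21.2, 25.1 and 18.7 TPM in Epi (2.05, adjusted p = 0.0458), and without Epi replicate 1 its difference was 0.97 and it was no longer called. The call of Foxa2 was also lost when any of the exEndo 1 libraries was left out (1.96 to 2.16) and without replicates 2 and 4 together (2.02, adjusted p = 0.156). Gata6 was 2.65, and 2.02 without Epi replicate 1. Foxa1 was 7.57 to 18.3 TPM in exEndo 1, 0.204 to 0.474 TPM in Epi and 0.187 ± 0.218 TPM (SD, n = 4) in exEndo 2, so that it also separated distal from proximal endoderm (3.45, adjusted p = 2.05e-05).

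Promoters of Afp, Apoa1, Hnf4a and Pou5f1 are shown as examples of windows that hold, or lack, letters that such factors recognize. They were picked by hand, so their matches are description and not a result. They are the 250 bases before the RefSeq start (GRCm38.p6, plus strand), in lower case, with motif matches in capitals. In Afp (chr5:90490464-90490713) the capitals mark an HNF1 motif (GTTAATNAT), a forkhead motif (TGTTTGC) and a TATA box (TATAAA). Apoa1 (chr9:46228380-46228629) holds the forkhead motif at 2 places. The Hnf4a window (chr2:163506607-163506856) holds a GATA motif (AGATAA) beside a GC box (GGGCGG), and the Pou5f1 window (chr17:35505782-35506031) holds the GC box alone.
Afp: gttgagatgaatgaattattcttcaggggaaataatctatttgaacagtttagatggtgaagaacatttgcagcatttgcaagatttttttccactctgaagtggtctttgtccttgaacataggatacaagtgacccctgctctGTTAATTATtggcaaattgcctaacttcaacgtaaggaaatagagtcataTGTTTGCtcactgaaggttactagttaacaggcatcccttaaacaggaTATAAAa
Apoa1: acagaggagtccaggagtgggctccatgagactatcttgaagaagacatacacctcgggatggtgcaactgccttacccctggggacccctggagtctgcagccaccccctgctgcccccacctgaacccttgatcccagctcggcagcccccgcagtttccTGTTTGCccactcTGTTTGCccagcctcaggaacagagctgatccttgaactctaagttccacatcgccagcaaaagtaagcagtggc
Hnf4a: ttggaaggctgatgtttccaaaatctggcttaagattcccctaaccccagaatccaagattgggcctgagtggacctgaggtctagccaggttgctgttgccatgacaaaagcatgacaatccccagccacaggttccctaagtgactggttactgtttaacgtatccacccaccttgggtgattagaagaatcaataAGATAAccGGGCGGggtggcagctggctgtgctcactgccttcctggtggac
Pou5f1: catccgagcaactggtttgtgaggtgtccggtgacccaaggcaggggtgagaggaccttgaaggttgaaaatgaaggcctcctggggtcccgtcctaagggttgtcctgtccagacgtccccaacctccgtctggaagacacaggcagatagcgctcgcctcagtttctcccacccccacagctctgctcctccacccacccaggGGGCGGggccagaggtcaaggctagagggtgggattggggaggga

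Counted from the start, the Afp matches lie at -105 to -97, -55 to -49 and -7 to -2, and the Apoa1 matches at -88 to -82 and -75 to -69. In Hnf4a the GATA motif is at -52 to -47 and the GC box at -44 to -39, and the GC box of Pou5f1 is at -45 to -40. Over the 32851 mouse promoter windows of the table, searched on both strands, 0.737% hold GTTAATNAT, 7.29% hold TGTTTAC or TGTTTGC, 9.99% hold AGATAA, 12.4% hold TATAAA and 32.7% hold GGGCGG. The other motifs searched were CAAAGTCCA (0.384%), ATGCAAAT (1.60%), GGCGGGAA (1.86%) and CACGTG (6.02%), none of which is in these 4 windows. A window was found for 79.2% of the genes tested, 78.7% of those called higher and 73.9% of those called lower. As this is under 80%, shares of motifs by direction of the call are void and are not given. The gene coordinates given with the TPM values place the start of Afp at position 90490737, downstream of the RefSeq start. They place the starts of Apoa1 (46228580) and Pou5f1 (35506018) inside the windows shown. By those coordinates the last bases of these windows lie within the genes, and the distances given hold for the RefSeq starts only.

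Uptake was marked by 13 rises, 2 falls and 1 gene not called among 16 endocytic receptors and adaptors tested, with a median log2 difference of 2.32. Cubn and Amn encode the subunits of the receptor cubam, which takes up vitamin B12 bound to intrinsic factor, apolipoprotein A-I and other proteins, and Dab2 is the adaptor that brings it to clathrin coats. Cubn was 299, 463, 739 and 573 TPM in exEndo 1 and 0.0460 to 0.0901 TPM in Epi (8.85). Amn was 615, 880.0, 1149.9 and 1062 TPM against 0.332 to 1.10 TPM (9.07), and Dab2 was 1776, 1955, 2641 and 2143 TPM against 9.28 to 12 TPM (7.48). Their partner Lrp2, known as megalin, was 39.7 to 81.5 TPM in exEndo 1 and already 14.7 to 20.9 TPM in Epi (1.72). It was 162 ± 39.9 TPM (SD, n = 4) in exEndo 2, above exEndo 1 (exEndo 1 minus exEndo 2 -1.46, adjusted p = 0.00151).

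Among the falls was a classical receptor of the cell surface. Tfrc, the transferrin receptor, was 6.5, 13.1, 14.5 and 15.4 TPM against 67.0, 54.6, 50.1 and 81.0 TPM (log2 difference -2.30, adjusted p = 1.18e-05). The groups did not overlap. So the iron carrier Trf and its receptor Tfrc differed in opposite directions.

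Of 28 lysosome genes, all tested, 25 were called higher, none lower and 3 were not called, with a median log2 difference of 2.23. Together they took 0.920 to 1.14% of TPM in exEndo 1 and 0.0813 to 0.0946% in Epi. The 4 largest rises were in the protease genes Ctsh, Lgmn, Ctsc (5.16) and Ctsl. Ctsh was 856, 941, 885 and 787 TPM in exEndo 1 and 0.330 to 1.35 TPM in Epi (9.0), Lgmn, an asparaginyl endopeptidase, was 885, 1142, 1228 and 893 TPM against 10.5 to 16.4 TPM (6.08), and Ctsl was 3018 to 3694 TPM against 116 to 163 TPM (4.56). The membrane protein gene Cd63 was 880.2 to 1302 TPM against 46.6 to 68.5 TPM (4.33). The exceptions were Ctsd, Gla and Psap. Ctsd, an aspartic protease, was 80.8, 139.9, 132 and 145 TPM in exEndo 1 and 78.3, 82.9, 78.2 and 42.5 TPM in Epi (0.82), and was called without exEndo 1 replicate 1 (1.02). Gla was 11 to 18.8 TPM against 6.73 to 8.06 TPM (0.74), and Psap, the precursor of activators of sphingolipid breakdown, was 20.7 to 40.2 TPM against 42.3 to 66.7 TPM (-0.89). Psap was called lower (-1.22) when exEndo 1 replicates 2 and 4 were left out, and also without Epi replicate 4 (-1.02) or exEndo 1 replicate 4 (-1.03).

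Iron and vitamin handling gave 11 rises and 2 falls among 15 genes tested (median log2 difference 2.58). Slc40a1, the iron exporter ferroportin, was 75.1, 88.3, 80.7 and 81.9 TPM in exEndo 1 and 2.77 to 6.17 TPM in Epi (4.01), and Fth1, a ferritin subunit, was 2217 to 4535 TPM against 372 to 768 TPM (2.58). The ferrireductase gene Steap3 fell with Tfrc, from 5.29 to 11.8 TPM in Epi to 0.229, 2.01, 2.03 and 1.78 TPM in exEndo 1 (-2.0). Slc11a2, an importer of free iron (1.53), and the heme oxygenase gene Hmox1 (1.45) were also called higher, and Ftl1 was not (0.68). Folr1, the folate receptor, was 541, 685, 549 and 562 TPM against 0.549 to 3.5 TPM (7.98). Among retinoid genes, Cyp26a1, which degrades retinoic acid, was 1384, 1080.1, 456 and 809 TPM in exEndo 1 and 0.108, 34.1, 53.4 and 65.6 TPM in Epi (5.48). Without Epi replicate 1 its difference was 4.1.

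**Figure D4:**
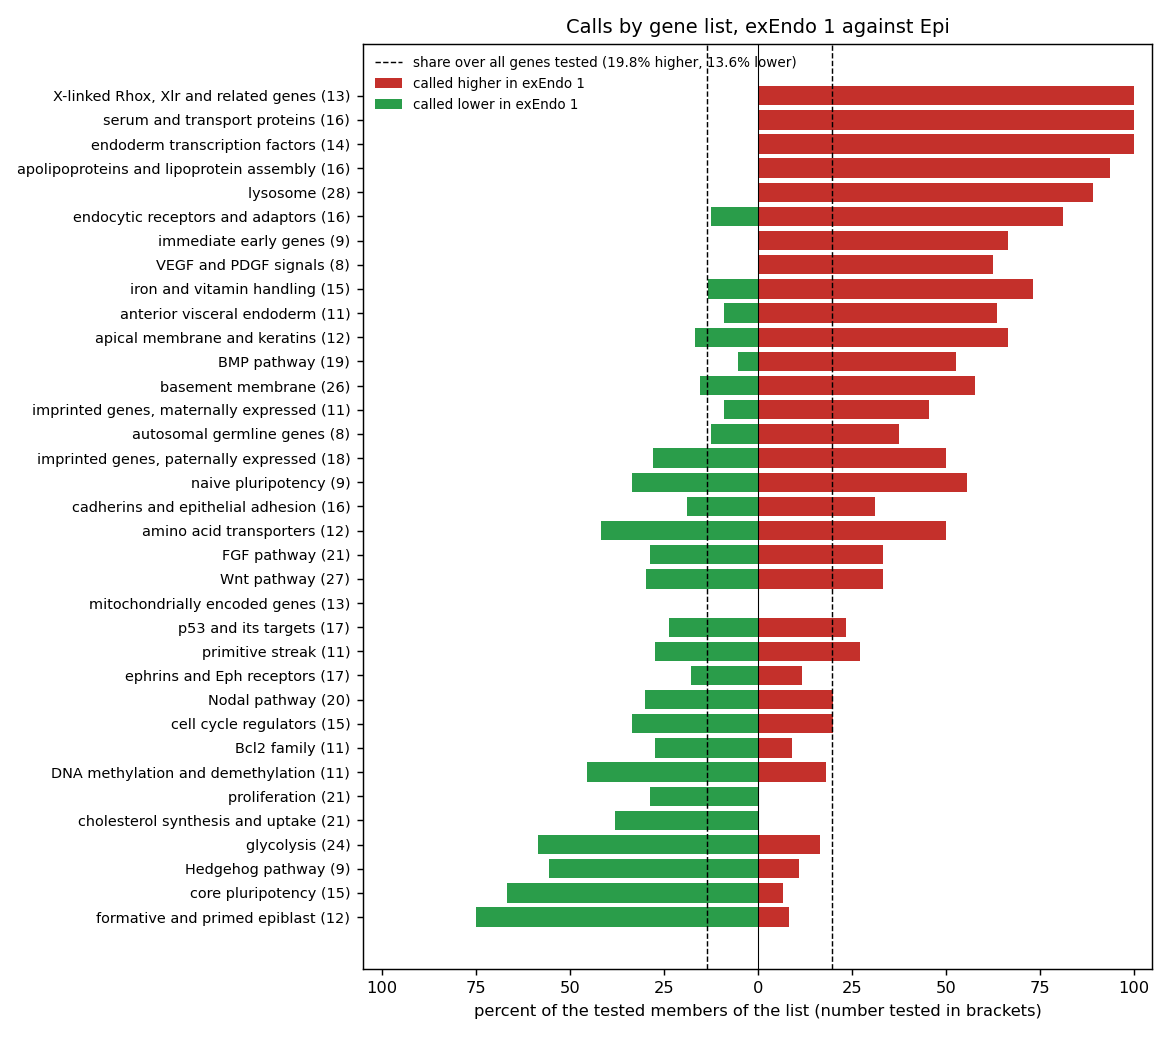
Percent of the tested members of each gene list that were called higher (right, red) or lower (left, green) in exEndo 1, with the number tested in brackets and dashed lines at the shares over all genes tested (19.8% higher and 13.6% lower). Serum proteins, endoderm transcription factors, apolipoproteins, lysosome and X-linked Rhox and Xlr genes lie far to the right, and formative epiblast, core pluripotency and glycolysis genes to the left. Members almost absent from either group were tested only through the other, which fixed their direction.

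The anterior visceral endoderm list gave 7 rises, 1 fall and 3 genes not called among 11 (median 2.78), and its members varied between the exEndo 1 libraries. Of the secreted antagonists, Cer1, which binds Nodal and BMP, was 283, 89.8, 11 and 209 TPM in exEndo 1 and 0.153, 10.9, 7.31 and 3.56 TPM in Epi (log2 difference 4.23, SE 0.94, adjusted p = 0.00218). Dkk1, a blocker of the Wnt co-receptors, was 68.4, 42.1, 37.9 and 70.1 TPM against 0.0757 to 5.69 TPM (4.07). Sfrp1 was 186, 77.5, 21.2 and 87.5 TPM against 5.28 to 8.46 TPM (3.25), and Sfrp5 was 37.7, 15.8, 9.02 and 33.7 TPM against 0.0938 to 0.488 TPM (4.05). For these genes the groups did not overlap, although replicate 3 came close to Epi in Cer1. The difference of Cer1 was 5.20 without that library, 3.61 without replicates 2 and 4 and 3.55 without Epi replicate 1. Lefty1, an inhibitor of Nodal, was 53.5, 48.1, 0 and 18.9 TPM in exEndo 1 and 2.90 to 13.7 TPM in Epi (0.95, adjusted p = 0.450). Without exEndo 1 replicate 3 its difference was 2.26 and it was called, and without replicates 2 and 4 it was -0.09.

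Transcription factors of the same cells were less separate. Hhex, the earliest marker of the distal visceral endoderm, was 43.7, 16.7, 6.88 and 28.9 TPM in exEndo 1 and 0.608 to 3.39 TPM in Epi (2.78). Hesx1 was 86.6, 2.03, 3.07 and 20.1 TPM against 0.333 to 1.02 TPM (2.97, and 2.02 without exEndo 1 replicate 1). Lhx1 was 153, 149.9, 31.1 and 111 TPM against 0.122, 37.1, 48.9 and 41.3 TPM (2.46, adjusted p = 0.0604), and passed the test without Epi replicate 3 (2.97) or exEndo 1 replicate 3 (2.99), but was 1.15 without Epi replicate 1. Gsc was 60.6, 62.1, 4.46 and 22.9 TPM against 1.10, 33.8, 41.9 and 32.8 TPM (0.57, adjusted p = 0.637). Both overlapped, and without Epi replicate 1 the difference of Gsc was -0.47. Otx2, which is expressed in both tissues, was the fall, at 179, 114, 4.18 and 91.9 TPM in exEndo 1 and 331, 359, 352 and 268 TPM in Epi (-2.54). Its difference was -1.39 without exEndo 1 replicate 3 and -3.42 without replicates 2 and 4. In exEndo 2, Cer1, Otx2, Gsc and Lefty1 were each at most 0.154 TPM on average, and exEndo 1 was higher than exEndo 2 in Cer1 (6.37, adjusted p = 0.00033) and Otx2 (5.73, adjusted p = 0.00137).

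Core pluripotency genes gave 10 falls and 1 rise among 15 (median log2 difference -2.69), and formative or primed epiblast genes 9 falls and 1 rise among 12 (-2.51). Pou5f1, which encodes OCT4, was 1694, 1824, 1852 and 1067 TPM in Epi and 9.29, 21.7, 2.28 and 17.4 TPM in exEndo 1 (-7.17, SE 0.49, adjusted p = 3.12e-07), and its difference was -8.08 without exEndo 1 replicates 2 and 4. Sox2 was 25.3 to 32.3 TPM in Epi and 0.0280 to 0.874 TPM in exEndo 1 (-4.34). Nanog was 45.5 to 70.4 TPM and 1.31 to 4.09 TPM (-4.20). Among formative genes, Pou3f1 was 23.5 to 33.9 TPM in Epi and at most 0.450 TPM in exEndo 1 (-4.54). The groups were apart for all 4 genes.

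Among the members of these lists that rose, Car4, a membrane-bound carbonic anhydrase, was 3259, 3595, 3027 and 2980.0 TPM in exEndo 1 and 507, 497, 519 and 366 TPM in Epi (2.77), so its epiblast level was also high. Of 9 naive pluripotency genes tested, 5 were called higher and 3 lower (median 1.54). The rises were Tbx3, Tfcp2l1, Klf5, Klf4 and Zfp42, all of which encode transcription factors. Tfcp2l1 was 29.4, 26.6, 41.8 and 23.7 TPM in exEndo 1 and 0.203 to 0.758 TPM in Epi (4.48), and Tbx3 was 35.8 to 66.2 TPM against 0.161 to 2.69 TPM (4.92). The falls were Fgf4, Dppa5a and Nr0b1. Fgf4, the signal that epiblast cells send to the primitive endoderm and trophoblast, was 16.3, 3.79, 2.44 and 2.28 TPM in Epi and listed at 0 in 3 exEndo 1 libraries. Dppa5a overlapped between the groups and was not called without exEndo 1 replicate 3 (-1.58) or replicate 4 (-1.69), nor without replicates 2 and 4 together (-1.54). Without Epi replicate 1 it was -1.17. Nr0b1 (-1.06) fell just short of the call without Epi replicate 1 (-0.99) or exEndo 1 replicate 2 or 4, and was -0.87 without both of the last.

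Primitive streak genes gave 3 rises and 3 falls among 11 tested, and depended on Epi replicate 1. T, the brachyury gene, was 1.05, 23.4, 24.1 and 53.5 TPM in Epi and 1.34, 4.20, 2.59 and 2.97 TPM in exEndo 1 (-2.16, adjusted p = 0.0328). Leaving out any library other than Epi replicate 1 or exEndo 1 replicate 2 ended the call of T, with differences of -2.20 to -1.57. T was -3.15 without Epi replicate 1, and -2.48 and not called (adjusted p = 0.0755) without exEndo 1 replicates 2 and 4. Mixl1 was 1.90, 141, 144 and 227 TPM in Epi and 192, 214, 54.1 and 95.7 TPM in exEndo 1 (1.01, adjusted p = 0.460), and -0.46 without Epi replicate 1. Mixl1 was thus abundant in both tissues. Lefty2 was 12.1 to 64.1 TPM in Epi and 0.0227 to 2.33 TPM in exEndo 1 (-3.84). The median of the list was 0.57 over all libraries and -0.47 without Epi replicate 1.

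In the Nodal pathway 4 genes rose, 6 fell and 10 were not called, with a median of 0.05 (-0.22 after quantile normalization), and direction differed between ligands, co-receptors and antagonists. Nodal itself was 28.4, 25.5, 21.2 and 9.99 TPM in Epi and 48.8, 57.5, 16.5 and 40.1 TPM in exEndo 1 (0.87, adjusted p = 0.0709), and was called higher without exEndo 1 replicate 3 (1.24). Gdf1, whose product pairs with Nodal, was 10.2 to 34.8 TPM in Epi and at most 0.336 TPM in exEndo 1 (-4.58). The co-receptors exchanged places. Tdgf1, known as Cripto, was 212, 269.9, 249.8 and 479.9 TPM in Epi and 0.695, 47.2, 0.698 and 37.5 TPM in exEndo 1 (-5.08, and -7.41 without exEndo 1 replicates 2 and 4). Cfc1, known as Cryptic, was 0.824, 5.89, 3.84 and 6.82 TPM in Epi and 82.4, 86.7, 83.7 and 93.2 TPM in exEndo 1 (4.23). Fst, an activin-binding antagonist, was 30.4, 156, 142 and 149 TPM in Epi and 0.204, 4.16, 0.190 and 0.995 TPM in exEndo 1 (-5.70, and -6.41 without exEndo 1 replicates 2 and 4). Among receptors, Acvr2b was called lower (-1.58) and Tgfbr1 higher (1.10). Tgfbr1 was not called after quantile normalization (0.77) or median-ratio rescaling (0.95), nor with FPKM (0.99). The genes of the effectors Smad2 (0.80), Smad3 (-0.65) and Smad4 (0.02) were not called.

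The BMP pathway gave 10 rises and 1 fall among 19 (median 1.17). The ligand gene Bmp2 was 18.4, 23.0, 40.6 and 38.3 TPM in exEndo 1 and 0.0452 to 1.43 TPM in Epi (3.99), and exceeded exEndo 2 as well (3.11, adjusted p = 8.42e-05). Bmp4, a ligand of the extraembryonic ectoderm, was at most 3.72 TPM in both (0.39). The target genes Id1 and Id2 rose, Id1 from 42.4 to 69.3 TPM in Epi to 659, 229.9, 305 and 415 TPM in exEndo 1 (2.85), and Id2 from 23.9 to 42.0 TPM to 192 to 324 TPM (2.97). Id3 did not pass the test (0.05). The receptor gene Bmpr1b was the fall, at 1.5 to 3.55 TPM in Epi and at most 0.124 TPM in exEndo 1 (-1.77).

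Of 27 Wnt pathway genes 9 were called higher and 8 lower (median 0.55). The nuclear factors divided by member. Lef1 was 69.7, 107, 119.9 and 90.6 TPM in Epi and 1.38, 4.29, 1.45 and 3.83 TPM in exEndo 1 (-4.78). Tcf7l1, the repressor of the family in pluripotent cells, was 27.3 to 42.0 TPM and 3.22 to 10.0 TPM (-2.34), whereas Tcf7l2 was 23.6 ± 4.7 TPM (SD, n = 4) in Epi and 67.2 to 185 TPM in exEndo 1 (2.18). Each of these genes was apart in all 8 libraries. The secreted binder Sfrp2 was 12.3 to 24.3 TPM in Epi and at most 0.476 TPM in exEndo 1 (-3.87), against the rises of Sfrp1 and Sfrp5. Of the ligands, Wnt11 (2.45), Wnt3 (1.44) and Wnt5a (1.21) were called higher and Wnt5b (-2.40) lower. The target gene Axin2 was not called (-0.04). Wnt3 was 0.88 without Epi replicate 1 and was then not called, nor was it without exEndo 1 replicate 2 (1.33), replicate 4 (1.28) or both (1.04). Wnt5a was 0.98 without exEndo 1 replicate 3.

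FGF signals and receptors also divided, with 7 rises and 6 falls among 21 (median 0.15, and -0.18 after quantile normalization). Fgf15 was 41.6, 44.7, 45.7 and 25.4 TPM in Epi and at most 0.110 TPM in exEndo 1 (-5.23), and Fgf10 was 39.6, 27.5, 18.2 and 19.6 TPM in exEndo 1 and at most 0.960 TPM in Epi (4.15). Of the receptors, Fgfr1 was 20.6 to 33.7 TPM in Epi and 6.53 to 11.1 TPM in exEndo 1 (-1.49). Fgfr3 was 14.6 to 23.0 TPM in exEndo 1 and 0.212 to 0.441 TPM in Epi (4.00), and Fgfr4 was 10.2 to 15.2 TPM against at most 0.123 TPM (3.69). The ETS factor Etv1, a target of the pathway, was 17.8 to 24.6 TPM in Epi and 0.0708 to 1.51 TPM in exEndo 1 (-3.83), and Etv4 was not called (0.15).

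In the Hedgehog pathway the ligand gene tested rose, while of the other genes 5 fell and 3 were not called. Ihh, which the visceral endoderm secretes, was 3.77, 6.87, 10.6 and 6.22 TPM in exEndo 1 and 0.0269 to 0.0797 TPM in Epi (2.82). Gli3 (-3.10), Gli2 (-2.21), Smo (-1.11) and the co-receptor gene Gas1 (-2.80) were among the falls (median -1.11 over the 9 genes tested). Smo was -0.99 without Epi replicate 4. Among VEGF and PDGF signals 5 of 8 were called higher (median 1.28). Vegfa was 13.0 to 22.8 TPM in exEndo 1 and 0.798 to 2.10 TPM in Epi (2.97), and the co-receptor gene Nrp1 was 13.3 to 25.1 TPM against 0.0801 to 0.913 TPM (3.68). Of 17 ephrins and Eph receptors tested 2 rose, 3 fell and 12 were not called (median -0.03). Efnb1 had the largest of these differences (4.77).

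**Figure D5:**
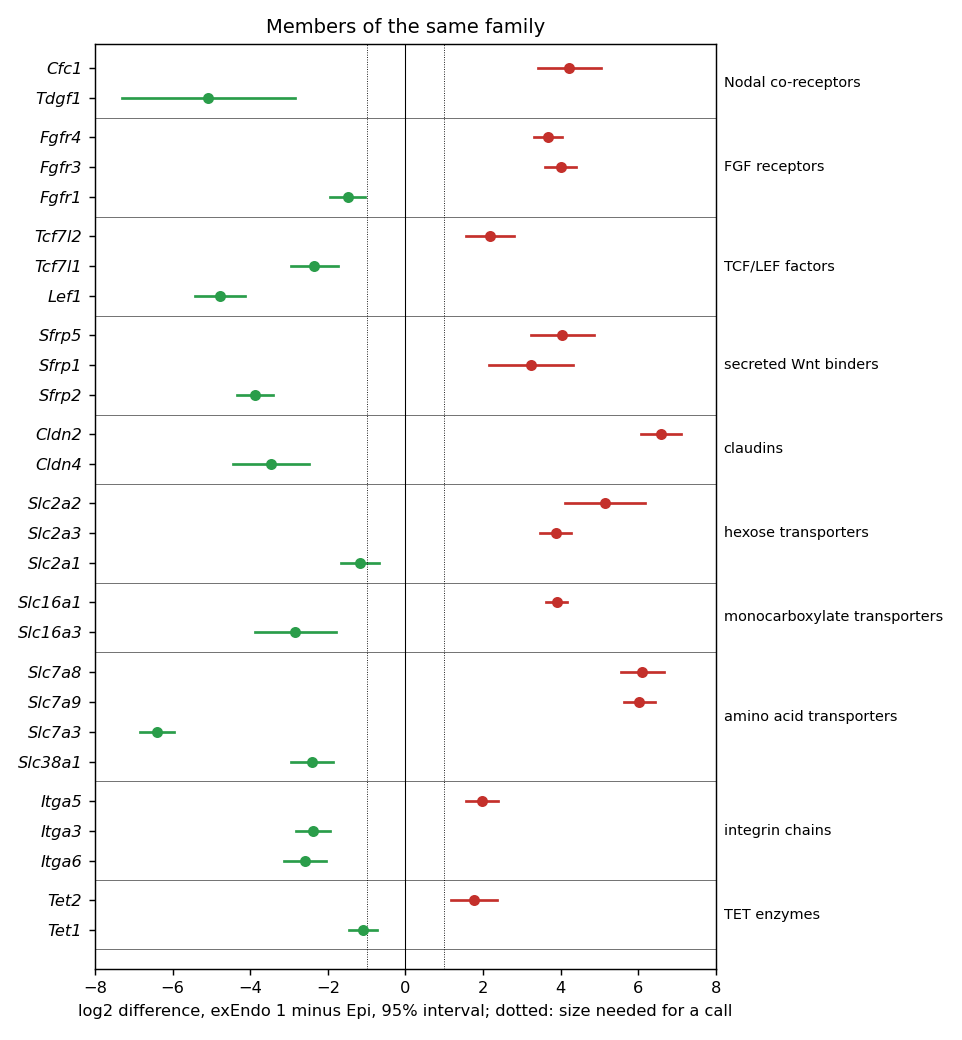
Log2 difference between exEndo 1 and Epi, with its 95% interval, for 27 genes of 10 families, red where the estimate is above 0 and green where it is below. The families were chosen after their values were seen because members lay on both sides of 0, and in each at least 1 member lies beyond the dotted line on either side, as for Cfc1 at 4.23 and Tdgf1 at -5.08.

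Glycolysis gave 14 falls and 4 rises among 24 genes (median log2 difference -1.17), where 13.6% of all genes fell. Of 19 enzymes 12 fell. Gapdh was 3793, 5209, 4940.4 and 3034 TPM in Epi and 1437, 1467, 1321 and 1480.2 TPM in exEndo 1 (-1.54), and Pkm was 1434 to 2659.8 TPM and 669.6 to 958 TPM (-1.39). Eno3 was 26 to 37.7 TPM and 1.99 to 4.67 TPM (-2.98). Ldha, at 6350.3 to 6683 TPM in Epi and 3193 to 4047 TPM in exEndo 1, did not reach the size for a call (-0.79, adjusted p = 8.6e-05), while Ldhb did, at 332 to 398 TPM and 41.0 to 104 TPM (-2.54).

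Sugar and lactate transporters changed by member. Slc2a1, known as GLUT1, was 441, 538, 509.8 and 282 TPM in Epi and 131, 202, 212 and 228 TPM in exEndo 1 (-1.18), whereas Slc2a3, known as GLUT3, was 48.0 to 56.0 TPM and 509.8, 829.9, 1008 and 798 TPM (3.88). Slc2a2, the low-affinity transporter of liver, was at most 0.0435 TPM in Epi and 10.3, 38.0, 81.8 and 46.9 TPM in exEndo 1 (5.15). The lactate transporter gene Slc16a1 rose from 46.1 to 58.5 TPM in Epi to 685 to 924 TPM in exEndo 1 (3.90), and Slc16a3, which exports lactate from glycolytic cells, fell from 109.9 to 499 TPM to 19.6 to 79.7 TPM (-2.84, and -3.45 without exEndo 1 replicates 2 and 4). The groups did not overlap for any of these 5 transporters.

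Cholesterol synthesis and uptake gave 8 falls and no rise among 21 genes (median -0.63). The falls included Sqle, Idi1, Fdps, Fdft1, Insig1, Hmgcs1 and Dhcr7. The last of these were close to the size for a call, Hmgcs1 being -0.99 without Epi replicate 1 and also missed without Epi replicate 2 or exEndo 1 replicate 4, and Dhcr7 -0.85 without exEndo 1 replicate 1 and also missed without Epi replicate 1, 2 or 3. Sqle, the squalene epoxidase, was 74.1, 71.2, 72.6 and 40.1 TPM in Epi and 10.3, 8.56, 7.26 and 9.37 TPM in exEndo 1 (-2.70). Fdps was 207 to 307 TPM and 62.9 to 79.8 TPM (-1.88). The genes of the regulators Srebf1 (0.19) and Srebf2 (0.48) were not called.

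Amino acid transporters gave 6 rises and 5 falls among 12 (median 0.13, and -0.08 after quantile normalization). Slc7a3, a carrier of cationic amino acids, was 309.6, 229, 236 and 255 TPM in Epi and 3.39, 1.18, 1.96 and 1.97 TPM in exEndo 1 (-6.40), the largest fall after Pou5f1. Slc38a1, a carrier of glutamine, was 94.4 to 110.0 TPM and 10.1 to 26.7 TPM (-2.41). Slc7a8 and Slc7a9, which form epithelial exchangers, were 69.3 to 172 TPM and 68.1 to 113 TPM in exEndo 1 and below 1 TPM in every Epi library (6.11 and 6.03). Every exEndo 1 library was therefore on the other side of every Epi library for these carriers. Bcat1, a transaminase of branched-chain amino acids, was 67.8 to 135 TPM in Epi and 0.105 to 2.95 TPM in exEndo 1 (-5.52, and -6.13 without exEndo 1 replicates 2 and 4).

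Among 16 cadherin and junction genes tested 5 rose and 3 fell (median 0.82). Cdh1, or E-cadherin, was 85.1 to 111 TPM in Epi and 56.9 to 80.4 TPM in exEndo 1 (-0.62), and Epcam was 271 to 357 TPM and 186 to 335 TPM (-0.47); neither was called. Cldn2, which forms cation pores in tight junctions, was 61.7, 94.8, 146 and 109.8 TPM in exEndo 1 and at most 0.0867 TPM in Epi (6.60), whereas Cldn4 was 34.1, 17.4, 12.2 and 5.62 TPM in Epi and at most 0.953 TPM in exEndo 1 (-3.46). Apical and keratin genes gave 8 rises and 2 falls among 12 (median 2.35). Vil1, the villin of microvilli, was 32.9 to 61.5 TPM against 0.355 to 0.463 TPM (5.18), and Krt8 was 872, 904, 652 and 1092 TPM against 27.7 to 39.1 TPM (4.65). The intermediate filament gene Vim fell (-1.27).

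Basement membrane genes gave 15 rises and 4 falls among 26 (median 1.20). Col4a1, the collagen IV chain, was 89.9, 87.8, 89.4 and 91.9 TPM in exEndo 1 and 3.53 to 5.99 TPM in Epi (3.95), and Lama1, the laminin chain of the embryonic basement membrane, was 6.21 to 12.7 TPM against 0.306 to 1.24 TPM (2.75). Lama1 was 61.1 ± 48.5 TPM (SD, n = 4) in exEndo 2, above exEndo 1 (exEndo 1 minus exEndo 2 -2.31, adjusted p = 0.00328). The falls were Itga6, Itga3, P4ha2 and Hspg2. Itga6 and Itga3 encode laminin-binding integrin chains and were 23.3 to 50.6 and 7.26 to 12.3 TPM in Epi and 3.90 to 6.66 and 0.719 to 1.37 TPM in exEndo 1 (-2.59 and -2.38). Itga5, the chain of the fibronectin receptor, rose from 4.88 to 7.65 TPM to 22.6 to 35.2 TPM (1.98).

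Of 11 genes of DNA methylation and demethylation 5 fell and 2 rose (median -0.45). The de novo methyltransferase genes fell. Dnmt3b was 1486, 1486, 1723 and 1167 TPM in Epi and 220.4, 355, 319.9 and 336 TPM in exEndo 1 (-2.26), and Dnmt3a was 307, 239, 257 and 107 TPM and 28.7, 41.9, 22.8 and 19.8 TPM (-2.92). Dnmt3l fell too (-2.07). Dnmt1, the maintenance enzyme, was 55.5 to 78.8 TPM and 50.1 to 61.7 TPM (-0.32, adjusted p = 0.0676) and overlapped. Of the oxidizing enzymes, Tet1 was 73.3 to 121 TPM in Epi and 40.3 to 51.7 TPM in exEndo 1 (-1.09), and Tet2 was 0.795 to 2.99 TPM and 5.92 to 11.1 TPM (1.77). Tet1 was -0.99 without Epi replicate 1. Zfp57, which keeps methylation at imprints, was 12.7 to 15.5 TPM and 30.7 to 56.5 TPM (1.59).

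Imprinted genes, which are expressed from the copy of 1 parent, rose more often than they fell, with 5 rises and 1 fall among 11 maternally expressed genes (median 0.79) and 9 and 5 among 18 paternally expressed genes (median 1.06). Igf2, a fetal growth factor, was 27.7, 40.6, 71.1 and 53.8 TPM in exEndo 1 and 0.206 to 0.454 TPM in Epi (5.16). Peg10, a retrotransposon-derived gene of the placenta, was 108, 208, 281 and 184 TPM against 1.82 to 4.00 TPM (5.62), and Sfmbt2 was 51.6 to 93.9 TPM against 0.688 to 1.83 TPM (5.12). Igf2r, which takes the IGF2 protein to lysosomes, was 25.6 to 41.3 TPM against 8.32 to 9.27 TPM (1.84). It overlaps the antisense transcript Airn, and since the libraries did not keep strand the reads of both cannot be told apart. Snrpn, Ndn, Magel2 and Mkrn3, which lie together on chromosome 7, were all called lower, although Mkrn3 (-1.07) was not without Epi replicate 4 (-0.99) or exEndo 1 replicate 4 (-0.92). Snrpn was 393, 455, 489 and 258 TPM in Epi and 8.51, 18.8, 5.62 and 24.4 TPM in exEndo 1 (-4.86, and -5.61 without replicates 2 and 4). Which parental copy was read was not measured.

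Of 18 X-linked Rhox, Xlr and related genes 13 could be tested, and all 13 were called higher (median 5.54). Members almost absent from Epi, such as Xlr3a, passed the filter only through exEndo 1, which fixed their direction. On the X chromosome as a whole 122 of 448 genes tested (27.2%) were called higher and 99 (22.1%) lower. Rhox5, a homeobox gene of extraembryonic tissue and testis, was 1603, 1626, 1799.6 and 1403 TPM in exEndo 1 and 13.4, 0.765, 0.850 and 0.807 TPM in Epi (9.04, and 9.79 without Epi replicate 1). Xlr3a was 592, 532, 472 and 415 TPM against 0.105 to 0.514 TPM (8.61). Trap1a was 242 to 322 TPM against 11.3 to 17.0 TPM (4.28). For Rhox5 the libraries with Xist were at 1603 and 1799.6 TPM and those with Y transcripts at 1626 and 1403 TPM. Members of the Xlr family are near-identical copies, so that their division among copies is uncertain.

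Proliferation genes gave 6 falls and no rise among 21 (median -0.70), and the falls were all among genes of DNA replication (6 of 10), none of 11 mitotic genes being called. Mcm3, of the replicative helicase, was 183, 186, 190.4 and 188 TPM in Epi and 60.4, 61.4, 60.4 and 58.4 TPM in exEndo 1 (-1.62). Mki67 (-0.04) and Cdk1 (-0.18) were not called. Without exEndo 1 replicates 2 and 4 the list gave 3 falls. Among cell cycle regulators, Ccnd1, or cyclin D1, was 99.6 to 170.0 TPM in Epi and 2.88, 13.6, 2.40 and 13.2 TPM in exEndo 1 (-4.26, and -5.25 without replicates 2 and 4). Cdkn2a, which encodes p16 and ARF, was 32.8, 48.7, 22.1 and 39.4 TPM in exEndo 1 and 0.267 to 3.36 TPM in Epi (4.06). The kinase gene Pim2 was 329 to 660.0 TPM in Epi and 12.5 to 17.6 TPM in exEndo 1 (-5.07).

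Genes of p53 and its targets gave 4 rises and 4 falls among 17 (median 0.01, and -0.29 after quantile normalization), and the Bcl2 family 1 rise and 3 falls among 11. The Bcl2 rise was lost after quantile normalization, median-ratio rescaling, with FPKM and without exEndo 1 replicates 2 and 4. Members of these lists that rose are not among the genes given below. Trp53, which encodes p53, was 191, 226, 245 and 92.7 TPM in Epi and 51.9, 70.7, 65.4 and 55.4 TPM in exEndo 1 (-1.54). Pmaip1, or NOXA, was 67.4 to 88.6 TPM and 2.77 to 9.41 TPM (-3.71), and Bok was 36.7 to 65.9 TPM and 0.746 to 3.22 TPM (-4.20). Bcl2l11, or BIM, was 20.4 to 25.3 TPM and 4.32 to 5.81 TPM (-1.92). These 3 genes promote apoptosis and were apart in every library. The antiapoptotic genes Bcl2l1 (0.82) and Mcl1 (0.48) and the p53 targets Cdkn1a (0.70) and Mdm2 (0.57) were not called, but Bcl2l1 was without exEndo 1 replicate 1 (1.02).

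Of 5 MHC class I genes tested 3 fell (median -1.51). H2-K1 was 21.1 to 42.1 TPM in Epi and 5.78 to 6.70 TPM in exEndo 1 (-2.17). The MHC genes differ in sequence between strains, and for them too lineage and strain cannot be told apart. Immediate early genes gave 6 rises among 9 (median 2.95), with Fos at 208, 139, 78.6 and 53.9 TPM in exEndo 1 and 4.14 to 6.13 TPM in Epi (4.17) and Junb at 47.8 to 86.4 TPM against 4.52 to 8.58 TPM (3.26). These genes encode transcription factors that are switched on within minutes of a stimulus. The 13 mitochondrially encoded genes tested were not called (median 0.44), and 2 were called higher without Epi replicate 1. Of 8 autosomal germline genes tested 3 rose and 1 fell (median 0.57).

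At E9.5 the descendants of the same reporters were compared in gut, with 4 midgut and 4 hindgut libraries of morula-derived cells (exGut) and as many of ESC-derived cells (emGut). Cells of either kind were sorted for EPCAM and by colour, whereas E6.5 tissues were not sorted. The emGut cells were GFP-positive with low mCherry signal, which the paper proposes comes from remnants of dying extraembryonic cells. According to the paper, emGut can therefore hold some extraembryonic transcripts, which would weaken the difference from exGut. Shares of calls at E6.5 and E9.5 are thus not compared like for like. The embryos were pooled and both regions carry the same replicate numbers, so that the 8 libraries of a kind are not 8 independent replicates. Over both regions 145 of 13473 genes tested were called higher in exGut (1.08%) and 171 lower (1.27%), 316 in all. With the gut region as a covariate 587 were called, and with the replicate number as a block besides 575. No library is shared with E6.5, but lines, strains and reporters are. Of 2257 genes called higher at E6.5 and tested at E9.5, 79 (3.5%) were called higher and 1 lower. Of 1459 called lower, 116 (7.95%) were called lower and 6 higher. Among 7906 genes tested at both ages and not called at E6.5, 26 were higher and 26 lower (0.329% each). With the region as a covariate 6.42% of the genes higher at E6.5 were called higher and 12.1% of those lower were called lower, against 0.506% higher and 0.658% lower of those not called at E6.5.

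Calls of genes that led at E6.5 depended on the region. Afp was 3.51 higher in exGut at E9.5 and was not called over both regions (adjusted p = 0.249), but was with the region as a covariate (adjusted p = 7.0e-06). Apoa1 was 1.79 higher (adjusted p = 0.663 without and 0.0446 with the region). Cubn was 0.97 higher and was called in neither fit (adjusted p = 0.652 and 0.0862). Over both regions the calls at both ages were X-linked in 19 of 79 rises (24.1%, against 3.72% of all genes tested at E6.5), among them Rhox5 (9.04 at E6.5 and 7.92 at E9.5), Xlr3a (8.61 and 7.81) and Trap1a (4.28 and 8.46). Xist was 22.3 to 113 TPM in the exGut libraries and at most 0.252 TPM in emGut. The Y-linked genes together were 0.00117 TPM in exGut hindgut replicate 1 and 19.8 to 138 TPM in the other exGut libraries. In emGut they were 0 to 11.8 TPM. Most exGut pools thus held transcripts of both sexes, whereas emGut was low for both. Sex and lineage therefore cannot be told apart in these X-linked genes at E9.5. Cdkn2a (4.06 and 5.62), Ctsh (9.0 and 1.75), Car4 (2.77 and 1.56), Peg10 (5.62 and 1.04) and Sfmbt2 (5.12 and 1.62) were also higher at both ages. Lower at both were Wfdc2 (-5.59 and -2.01), Ifitm2 (-5.65 and -1.40), Slc38a4 (-3.05 and -2.68), Sqle (-2.70 and -1.20), Hmgcs1 (-1.04 and -1.02) and Vim (-1.27 and -2.14).

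Predicted genes with Gm names made up 1.66% of the genes tested at E6.5, 13 of the 79 rises at both ages (16.5%) and 30 of the 116 falls (25.9%). All 30 falls lay on chromosome 14 between positions 3332627 and 19585135 (mm10), with log2 differences of -2.14 to -1.04 at E6.5 and -2.08 to -1.0 at E9.5. Within that span 35 Gm genes were tested at E6.5 and 33 fell. Of the rises, 9 lay on chromosome 2 between 175166255 and 177509763 (1.13 to 3.10 at E6.5). Another 8 of the falls at both ages were Hist1h2a histone genes, of 12 tested (-2.36 to -1.03 at E6.5). These are families of near-identical copies whose reads may be divided among copies, so their values are uncertain, and lineage and strain cannot be told apart in them.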

How the data were processed

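RNA-seq libraries of tissues from individual E6.5 embryos were analysed from the gene tables deposited for each library. According to the study's methods, trimming was done with cutadapt 4.1 and alignment with STAR 2.7.9a, on an mm10 index to which both reporter transgenes had been added. StringTie 2.0.6 then estimated the genes of GENCODE VM23. The deposited TPM (transcripts per kilobase, scaled to the same total in every library) were the values tested. The deposited FPKM (fragments per kilobase, scaled to library depth) served as an alternative. The deposited coverage, a signal of mean read depth per base, was divided by FPKM to give the gigabases aligned per library, since read counts are not in these tables. TPM express a share of the library, so that very abundant transcripts lower the values of all others.

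Of 32287 gene identifiers, 32235 were matched to gene types of GENCODE vM21, and 21704 were protein-coding. Protein-coding genes that are not Y-linked were tested where TPM exceeded 1 in at least 4 of the 8 libraries. Differences in log2(TPM + 1) were tested with limma 3.58.1 in R 4.3.3 (linear model and variances moderated along a mean trend). P-values were two-sided and adjusted by Benjamini-Hochberg across every gene tested. A fold change on this scale understates the change of low genes. A call required an adjusted p below 0.05 and a difference above 1. For a single gene, exact permutation of 4 against 4 libraries cannot give a p below 0.0286, so no such test was used. Tables were handled in pandas 2.3.3 and NumPy 2.4.6 under Python 3.11.15. The fit was also run on simulated independent normal values with far fewer changed genes than were called here. That run held no differences between whole libraries, so it does not show how the fit behaves under them.

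Groups were taken from the library titles. The members and gene lists were chosen with earlier results of these data known. Genes are named as members of those lists, or as the 12 with the largest rise, the 12 with the largest fall and the 10 most abundant in each group. At E6.5 the p-values measure the spread between tissues of individual embryos. At E9.5 they measure the spread between pools of embryos. In the E9.5 fit without the region, that spread also holds the difference between midgut and hindgut. Same-numbered exEndo 1 and exEndo 2 libraries deviated together (correlations of 0.167 to 0.402), so that comparison was also fitted with the replicate number as a block. The extraction protocol given with the Epi samples speaks of embryonic visceral endoderm, so that their identity rests on the title and the markers. Alternatives were FPKM, another pseudocount, quantile normalization, rescaling by median ratios, no low-value filter, no variance trend, all gene types, the replicate number as a block, all E6.5 libraries in 1 fit and each library left out in turn. Leaving out both exEndo 1 libraries above 10 TPM of EGFP, and the block for exEndo 2, were chosen after seeing the data. Samples other than the Epi, exEndo 1, exEndo 2 and E9.5 gut libraries were not used here. Some members of the lists are not reported here.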

Additional observations from a re-analysis of the deposited data

Results flagged for a closer look

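The libraries of a group were compared for each gene named with values, in at most 430 tests of 1 group and 1 gene. Groups in which every library was below 1 TPM were passed over, so fewer tests were made. In 34 of them 1 library stood apart from the other 3, by a gap beyond Dixon's 95% critical value for 4 samples, where chance gives about 1 in 20.

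Epi replicate 1 stood apart for 10 genes. It was the highest in Dppa5a (1524 TPM against 209 to 368 in the other Epi libraries), Fgf4 (16.3 against 2.28 to 3.79), Dnmt3l (19 against 2.55 to 5.33), Zfp42 (10.9 against 2.76 to 3.21), Rhox5 (13.4 against 0.765 to 0.85) and Idi1 (112 against 71.2 to 75.6). It was the lowest in Fst (30.4 against 142 to 156), Wnt3 (2.73 against 16.5 to 16.9), Axin2 (3.38 against 6.92 to 7.27) and Magel2 (6.23 against 10.5 to 11). The genes in which it was highest include several of the naive state and the germline-linked Dnmt3l and Rhox5.

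Epi replicate 4 stood apart for 11 genes. It was the lowest in Car4 (366 TPM), Uchl1 (72.5), Dnmt1 (55.5), Ctsd (42.5), Sqle (40.1), Fdft1 (31.6), Tcf7l1 (27.3), Eno3 (26) and Gdf1 (10.2), and the highest in Ctsc (20.9) and Tbx3 (2.69). This library also held the least EGFP of the 4. In Epi replicate 3 only Lama1 was apart among the genes tested (1.24 TPM against 0.306 to 0.418).

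In exEndo 1, replicate 1 accounted for 10 genes. It was the highest in Dppa5a (266 TPM against 69.3 to 101), Zfp42 (21.2 against 11.4 to 12.7) and Dnmt3l (2.02 against 0.249 to 0.55). It was the lowest in Apoc1 (204 against 297 to 311), Soat2 (151 against 233 to 242), Etv4 (5.34 against 20.5 to 21.8), Dhcr7 (4.06 against 7.24 to 7.51), Axin2 (2.16 against 7.08 to 8.08), Zeb2 (0.485 against 1.31 to 1.44) and Steap3 (0.229 against 1.78 to 2.03). Dppa5a, Zfp42, Dnmt3l and Axin2 were apart in replicate 1 of both tissues and in the same direction. Replicate 2 was apart in Folr1 (685 TPM against 541 to 562) and replicate 3 in Ldha (3193 against 3932 to 4047).

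Cox6b2, a testis form of a cytochrome c oxidase subunit, moved in opposite directions at the 2 ages. It was 5.25 to 16.7 TPM in exEndo 1 and 17.7 to 32.3 TPM in Epi (log2 difference -1.23), but 54.6 to 246 TPM in exGut and 8.48 to 47.1 TPM in emGut at E9.5 (2.13). No library overlapped at either age, and the difference between the ages was not tested. At E6.5 it was -0.94 without exEndo 1 replicate 3. In all 7 genes were called in opposite directions at the ages, and Cox6b2 was the only one whose groups were apart at both.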

How the results depend on the processing

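Between 3416 (FPKM) and 4513 (pseudocount of 0.1) genes were called under the alternatives that keep all 8 libraries and the same genes, against 4024 as reported. Without a filter on low values 4187 of 20612 genes were called, and with all gene types 4436 of 13305. Leaving out each library in turn gave 3943 to 4142 calls, 2323 to 2497 of them higher and 1614 to 1698 lower, and without both libraries holding EGFP there were 4042. The replicate number as a block gave 4028 calls. Deviations of same-numbered Epi and exEndo 1 libraries correlated at -0.001, 0.196, -0.031 and -0.167 over the genes tested, not all above 0.1, so the numbers were not taken to pair these samples, although 4 genes were apart in replicate 1 of both tissues. Between exEndo 1 and exEndo 2 the replicate block gave 797 calls against 732 and changed no call of Foxa1, Lrp2, Cer1, Otx2, Bmp2 or Lama1. At E9.5, 316 calls became 587 with the gut region as a covariate, 575 with the region and the replicate block, and 288 with a pseudocount of 0.1.

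Of the 215 genes named with values, 182 were called, and 27 lost their call or changed sign under some alternative. Over 3870 recomputed differences 3755 kept their direction and call, 70 lost the call, 20 gained it and 25 turned. None of the genes that turned had been called. With 1 library left out the log2 differences ranged from -0.46 to 1.64 for Mixl1, -0.47 to 1.33 for Gsc, -0.084 to 0.17 for Smad4, -0.033 to 0.19 for Id3, -0.26 to 0.33 for Axin2, -0.012 to 0.60 for Etv4 and -0.14 to 0.12 for Mki67. Quantile normalization turned Dgat1 (-0.067), Smad4 (-0.20), Id3 (-0.014), Etv4 (-0.18) and Srebf1 (-0.13). Median-ratio rescaling turned Smad4 (-0.13) and Id3 (-0.11), as did FPKM (-0.047 and -0.020). Without both libraries holding EGFP, Lefty1 (-0.090), Smad4 (-0.034) and Etv4 (-0.27) turned. The cause was not tested.

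Since the tables hold no read counts, no limit of detection is given for a gene listed at 0.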

Other observations

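Of 15 regulators of the G1 phase tested, cyclin D1 and Cdkn2a among them, 3 were called higher in exEndo 1 and 5 lower, with a median log2 difference of -0.38. Ccnd2, the cyclin D2 gene, was 7.32 to 26.1 TPM in Epi and 0.68 to 3.42 TPM in exEndo 1 (-2.56, limma adjusted p = 0.000142). Ccne1, for cyclin E1, was 284, 213, 235 and 144 TPM in Epi and 65.6 to 77.0 TPM in exEndo 1 (-1.55). Its paralogue Ccne2 was the reverse, with 21.6 to 51.3 TPM in Epi and 51.9 to 74.8 TPM in exEndo 1 (1.02), a difference just above the size for a call that fell to 0.76 after quantile normalization, to 0.86 without Epi replicate 2, and below 1 also without Epi replicate 1 or 3 or exEndo 1 replicate 1. Mycn was 79.7 to 109.8 TPM in Epi and 28.4 to 44.9 TPM in exEndo 1 (-1.34). Myc overlapped, at 25.9 to 55.0 TPM in Epi and 7.33 to 52.2 TPM in exEndo 1 (-0.81), and was called lower without exEndo 1 replicate 3 (-1.18). Cdkn1c, an imprinted gene that encodes the inhibitor p57, was 2.89 to 5.09 TPM in Epi and 36.2, 10.9, 47.1 and 66.9 TPM in exEndo 1 (2.89, limma adjusted p = 0.000146). Cdk6 was not called (-0.57).

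Of the 3 EMT regulators tested, transcription factors that repress epithelial genes, Snai1 and Zeb2 were called lower in exEndo 1 and Twist1 was not called. Snai1 was 3.05, 21.0, 23.3 and 13.2 TPM in Epi and 2.4 to 3.51 TPM in exEndo 1 (-1.73, and -2.30 without Epi replicate 1). Zeb2 was 1.11, 3.73, 7.99 and 10.8 TPM in Epi and 0.485 to 1.44 TPM in exEndo 1 (-1.43), and was not called without both libraries holding EGFP (-1.59). For both genes Epi replicate 1 lay within the range of exEndo 1, so that the groups overlapped. Twist1 was 0.468 to 1.59 TPM in Epi and 1.68 to 4.66 TPM in exEndo 1 (0.997, limma adjusted p = 0.00451), and was called higher after quantile normalization (1.05), with a pseudocount of 0.1 (1.54), without both libraries holding EGFP (1.32) and in 4 of the fits that leave out 1 library.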
